A study of Homo sapiens with 12 samples.

Results

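The transcriptional response to doxycycline (dox) was compared between the human pancreatic cancer lines Pa-Tu-8902 and MIA PaCa-2, both of which carried a dox-inducible short hairpin RNA against GOT1 (iDox-shGOT1). GOT1 is the cytosolic aspartate aminotransferase. Both lines were stable lines made with a lentiviral vector and selected with puromycin, and the labels do not name the hairpin. Each line was grown in medium without dox or with dox for 5 days, and 3 libraries of polyadenylated RNA were made for each of the 4 groups, so all 12 libraries of the series entered. Every group carried the hairpin and none was a dox-treated line without it. An effect of dox itself and an effect of GOT1 loss therefore cannot be told apart, and the word response below covers both. The labels and the methods of the study give the dose of dox in different units, so it is not stated here.

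The members were genes whose dox response differed between the lines. For each gene the log2 fold change with dox in MIA PaCa-2 was subtracted from that in Pa-Tu-8902, and this difference was tested in 1 model over the 12 libraries (the interaction contrast). Of 58676 genes in the table, 16529 had at least 10 counts in at least 3 libraries and were tested. A difference was called at an adjusted p below 0.01 and a fold difference of at least 1.5, the thresholds used in the study. Of these, 1724 genes (10.4% of those tested) were called: the response of Pa-Tu-8902 lay above that of MIA PaCa-2 for 1083 (6.55%) and below it for 641 (3.88%). Genes with a mean normalized count of at least 100 in each line were taken as well expressed, and 9999 were. Of these, 1215 (12.2%) were called. The text centres on the 51 well expressed genes (0.51% of the 9999) that were called in the difference and also called in each line, with dox moving them up in one line and down in the other. The limit used the mean of treated and untreated libraries together, so a gene could pass through the group in which it was high. In Pa-Tu-8902, AL353751.1 had a mean of 37.5 untreated and 187 with dox, and HIST1H2AC 81.6 and 220. In MIA PaCa-2, PLXNA2 had 54.9 untreated and 268 with dox, and UBE2L6 142 and 90.9.

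GOT1 takes part in the malate-aspartate shuttle, which carries reducing equivalents from the cytosol into mitochondria. For pancreatic cancer cells the study describes GOT1 as turning cytosolic aspartate into oxaloacetate. Cancer lines of one tissue can hold different cell states. Pancreatic cancer cells range from an epithelial state, with keratins and E-cadherin, to a mesenchymal state with vimentin. The response of a gene to the same perturbation can depend on its level and its regulators before the perturbation, so a difference in response is read here beside the level of the gene in each line.

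The libraries held 26226537 to 43406137 counts in genes. The first principal component within each line separated dox-treated from untreated libraries. On the second component of MIA PaCa-2, untreated replicate 2 lay at -14.9 and the other 2 untreated libraries at 9.27 and 7.24. Without that library 1729 genes were called and 57 well expressed genes moved in opposite directions, of which 50 were among the 51. The epithelial markers looked at were all higher in Pa-Tu-8902, by unequal amounts. In TPM, which scales each library to the same total per transcript length, CDH1, the gene of E-cadherin, lay between 60.01 and 139 in Pa-Tu-8902 and at no more than 0.22 in MIA PaCa-2, and EPCAM lay between 543 and 699 in Pa-Tu-8902 and at no more than 0.36 in MIA PaCa-2. VIM, the gene of vimentin, lay between 3531 and 4218 TPM in MIA PaCa-2 and between 2.54 and 10.5 TPM in Pa-Tu-8902. Of the other mesenchymal markers, ZEB1 was also higher in MIA PaCa-2, at 7.71 to 12.4 TPM against 0.63 to 0.88. CDH2 went the other way, with 0.56 to 1.16 TPM in Pa-Tu-8902 and at most 0.01 in MIA PaCa-2. SPARC reached no more than 0.31 TPM in either line. The keratin genes KRT8 and KRT18 were expressed in both lines, with at least 895 TPM in every library. KRT19 lay between 1031 and 1367 TPM in Pa-Tu-8902 and between 128 and 413 TPM in MIA PaCa-2. KRT7 lay between 1076 and 1443 TPM in Pa-Tu-8902 and between 0.25 and 1.26 TPM in MIA PaCa-2. MUC1 lay between 65.1 and 132 TPM in Pa-Tu-8902 and between 5.72 and 11.1 TPM in MIA PaCa-2. The epithelial markers CDH1 and EPCAM were thus near 0 in MIA PaCa-2, although the line is named as a pancreatic cancer line. Other epithelial markers, KRT8, KRT18, KRT19 and MUC1, were present there at lower levels than in Pa-Tu-8902. The 16 markers of leukocytes, endothelial cells, fibroblasts, erythroid, acinar, endocrine and liver cells all lay below 5 TPM in every library, and their sum lay between 0.87 and 5.00 TPM.

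GOT1 itself fell alike in the lines. Normalized counts (counts divided by the effective library size relative to the mean of the 12 libraries) of GOT1 were 3903, 3797 and 4363 untreated and 183, 158 and 141 with dox in Pa-Tu-8902, and 2166, 2446 and 2274 untreated and 72.4, 77.6 and 99.4 with dox in MIA PaCa-2. The log2 fold changes were -4.64 ± 0.10 (SE) and -4.77 ± 0.11, and their difference of 0.13 ± 0.16 did not pass the test (adjusted p = 0.62, edgeR quasi-likelihood test with Benjamini-Hochberg adjustment). The libraries of each line fell into 2 separate groups for GOT1. The other 11 genes of the malate-aspartate shuttle list are given with the gene lists.

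Most of the called differences were called in 1 line only. Of the 1724 genes, 711 (41.2%) were called in Pa-Tu-8902 only, 421 (24.4%) in MIA PaCa-2 only, 75 (4.35%) in both lines with the same sign, 118 (6.84%) in both lines with opposite signs, and 399 (23.1%) in neither line alone. A call in 1 line only rests on the thresholds and does not mean that the other line stayed still. Of 459 genes called higher in Pa-Tu-8902 only, 287 had a negative change in MIA PaCa-2. Of 252 called lower there only, 129 had a positive one. Of 285 called lower in MIA PaCa-2 only, 184 had a positive change in Pa-Tu-8902. Of 136 called higher there only, 74 had a negative one. The log2 changes of the 2 lines had different signs in 1191 of the 1724 (69.1%), against 40.7% of all genes tested. The 1724 were chosen for a large difference between the 2 changes, which by itself favours different signs, so this share describes the choice. In single lines, dox raised 1395 genes (8.44%) and lowered 1086 (6.57%) in Pa-Tu-8902, and it raised 658 (3.98%) and lowered 1164 (7.04%) in MIA PaCa-2. Opposite calls made up 0.714% of all genes tested. There were 90 (0.544%) that rose in Pa-Tu-8902 and fell in MIA PaCa-2, and 28 (0.169%) with the reverse pattern. Among well expressed genes 38 rose in Pa-Tu-8902 and fell in MIA PaCa-2, and 13 did the reverse. In all 51, the 3 treated values did not overlap the 3 untreated ones in either line. Over all genes tested, 28.9% had groups without overlap in both lines, and 7.3% had this with opposite signs. The rule for the 51 used the same contrasts, so this describes how they were chosen.

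**Figure D1:**
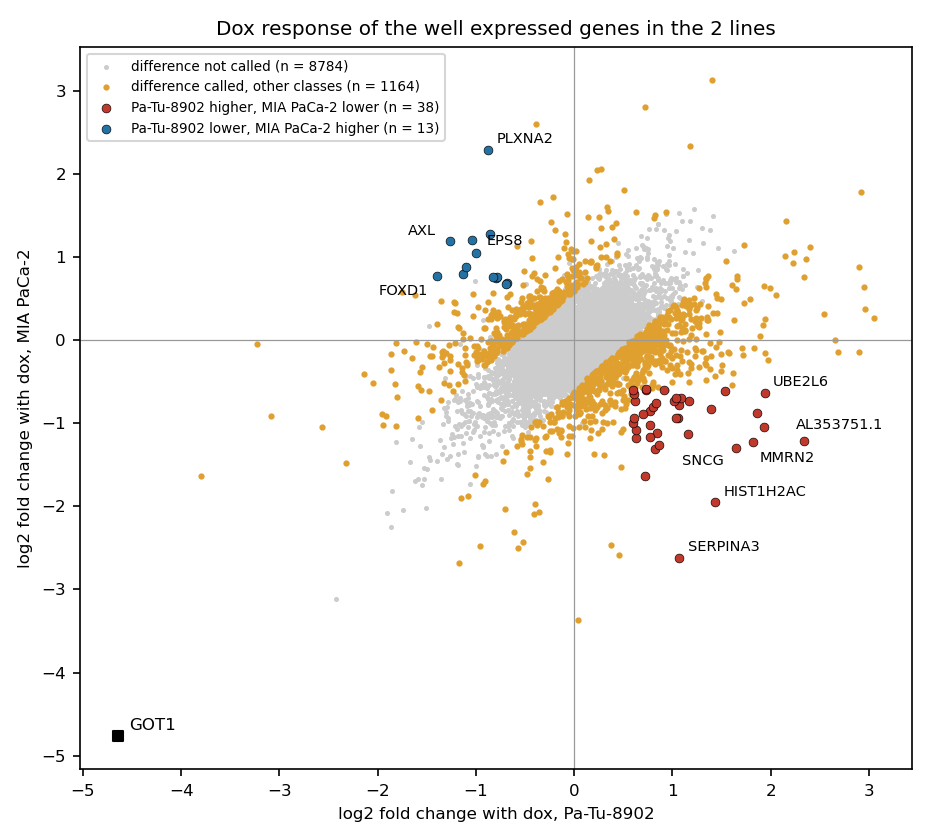
Each point is 1 of the well expressed genes, with its log2 fold change with dox in Pa-Tu-8902 on the horizontal axis and in MIA PaCa-2 on the vertical axis. The 38 genes higher in Pa-Tu-8902 and lower in MIA PaCa-2 (red) sit at the lower right, the 13 with the reverse pattern (blue) at the upper left, and GOT1 (black square) at -4.64 and -4.77 lies near the diagonal.

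The changes of the 51 were moderate. In the 38 genes the log2 fold change in Pa-Tu-8902 ran from 0.60 to 2.34 with a median of 0.89, and in MIA PaCa-2 from -2.62 to -0.59 with a median of -0.91. In the 13 genes it ran from -1.40 to -0.69 in Pa-Tu-8902, with a median of -0.88, and from 0.68 to 2.29 in MIA PaCa-2, with a median of 0.79. With a fold of at least 2 asked of each contrast, 10 of the 51 were left. The members just inside the limit on the fold were IFITM1, RAB11FIP4 and ZNF488, whose smaller change was 0.59, 0.60 and 0.60 on the log2 scale. Just outside it lay MUC1 and COL27A1, with 0.58 for each. Of the 51, 50 were protein-coding by the table's annotation.

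The levels of the lines before dox differed for the 38 and for the 13. Without dox, 26 of the 38 were higher in MIA PaCa-2, the line in which they fell, with a median ratio of MIA PaCa-2 to Pa-Tu-8902 of 2.06. With dox this ratio was 0.587. Of the 13, 10 were higher in Pa-Tu-8902 without dox, the line in which they fell, and the median ratio went from 0.228 to 0.704. Over all 9999 well expressed genes the median ratio was 0.993 without dox and 1.01 with dox. Dox reversed the order of the lines for 17 of the 38 and 3 of the 13, brought the lines closer for 9 and 7, and drew them farther apart for 12 and 3. A level before dox enters the change with dox, so levels and changes are not independent measures and no test was made.

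**Figure D2:**
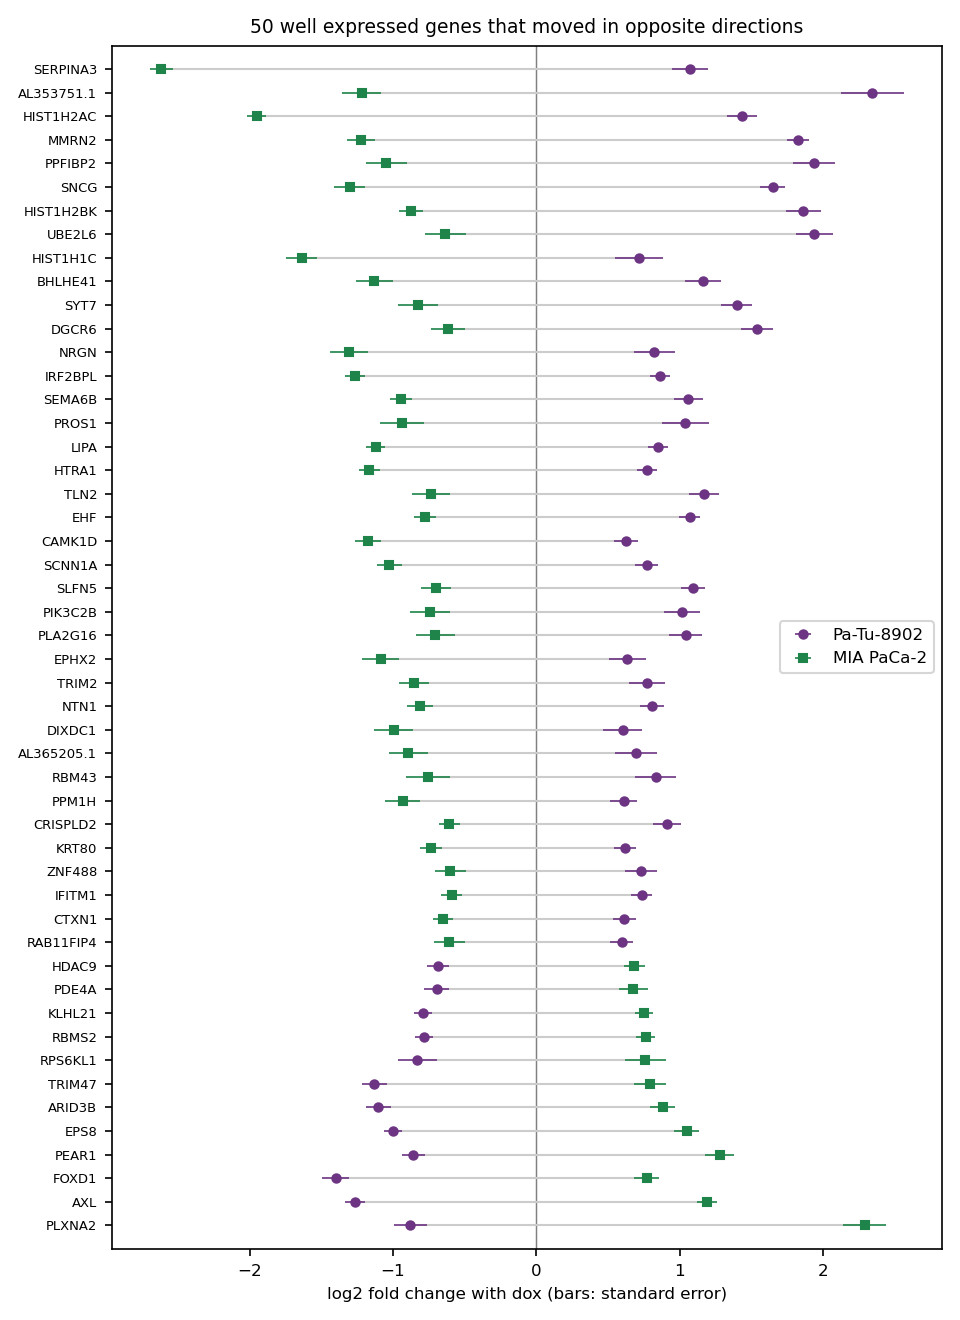
Log2 fold change with dox (horizontal axis) of 50 of the 51 well expressed genes that moved in opposite directions, in Pa-Tu-8902 (circles) and MIA PaCa-2 (squares), with standard errors. Genes are ordered by the difference between the lines, from SERPINA3 at 3.69 to PLXNA2 at -3.17.

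Among the 38 genes higher in Pa-Tu-8902 and lower in MIA PaCa-2, several encode secreted or matrix proteins. SERPINA3, the gene of alpha-1-antichymotrypsin, a secreted inhibitor of serine proteases (chr14:94612384-94624055, plus strand), had the largest difference of the 51 between the lines, 3.69 ± 0.15 on the log2 scale. Its normalized counts were 75.7, 94.4 and 116 untreated and 184, 212 and 208 with dox in Pa-Tu-8902. For MIA PaCa-2 the values read 17862, 17491 and 18938 untreated and 3028, 2715 and 3106 with dox. SERPINA3 thus stayed far higher in MIA PaCa-2, with a ratio of the group means of 189 without and 14.7 with dox. Its exons share 1585 bases (31.7%) with the annotated gene AL049839.2 on the same strand, which moved in the same directions at a low level. MMRN2, the gene of multimerin 2, a matrix protein known from blood vessels, had counts of 624, 571 and 631 untreated and 2205, 2099.7 and 2159.7 with dox in Pa-Tu-8902. Across MIA PaCa-2 libraries the counts of MMRN2 were 354, 334 and 419 untreated and 162, 162 and 151 with dox. The log2 fold changes were 1.82 ± 0.08 and -1.22 ± 0.10, and the line in which MMRN2 was higher before dox rose further.

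SNCG, the gene of gamma-synuclein, moved with MMRN2. It lies inside the span of MMRN2 on the opposite strand (chr10:86958599-86963258, plus strand, within chr10:86935540-86969481, minus strand, GRCh38), and the exons of the 2 genes share no base. SNCG counts were 3403, 3146 and 3745 untreated and 10421, 11390 and 10416 with dox in Pa-Tu-8902, and 628, 828 and 623 untreated and 292, 266 and 283 with dox in MIA PaCa-2. Its log2 fold changes of 1.65 ± 0.09 and -1.30 ± 0.11 were close to those of MMRN2.

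PROS1 encodes protein S, an anticoagulant that is also a ligand of TYRO3 and MERTK, the relatives of AXL. PROS1 had counts of 121, 95.4 and 164 untreated and 272, 238 and 270.5 with dox in Pa-Tu-8902, and 419, 360.4 and 312 untreated and 171, 184 and 213 with dox in MIA PaCa-2. HTRA1, a secreted serine protease, had 581, 584 and 602 untreated and 1002, 1065 and 951 with dox in Pa-Tu-8902. Its MIA PaCa-2 counts were 1387, 1450.1 and 1419.5 untreated and 689, 589.8 and 621 with dox. For PROS1 and HTRA1 the order of the lines turned over with dox: MIA PaCa-2 was higher before and Pa-Tu-8902 after. NTN1, the gene of the guidance cue netrin 1, went from 912 ± 40.2 (mean ± SD, n = 3) to 1594 ± 37.4 in Pa-Tu-8902 and from 798 ± 77.0 to 457 ± 57.9 in MIA PaCa-2. SEMA6B, a transmembrane semaphorin, rose from 188 ± 22.2 to 389 ± 46.8 in Pa-Tu-8902 and fell from 17300 ± 721 to 9002 ± 478 in MIA PaCa-2, where it was the higher by far in every library. CRISPLD2, which encodes a secreted protein, had log2 fold changes of 0.91 ± 0.10 and -0.61 ± 0.08, and its opposite call was lost in 3 of the 12 fits that left out 1 library.

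Histone genes were 3 of the 38. HIST1H2AC (histone H2A), HIST1H2BK (H2B) and HIST1H1C (linker histone H1.2) lie on chromosome 6, with HIST1H2AC and HIST1H1C 67675 bases apart. HIST1H2AC had counts of 81.6, 76.1 and 87.0 untreated and 216, 226 and 217 with dox in Pa-Tu-8902, and 7354, 8067 and 6852 untreated and 1920.5, 1823 and 2023 with dox in MIA PaCa-2. HIST1H2BK had 129, 115 and 109 untreated and 361, 491 and 422 with dox in Pa-Tu-8902. The counts in MIA PaCa-2 were 4401, 4711 and 4398 untreated and 2635, 2541 and 2202 with dox. Without dox the ratio of MIA PaCa-2 to Pa-Tu-8902 was 91.0 for HIST1H2AC and 38.3 for HIST1H2BK, and with dox it was 8.74 and 5.79. HIST1H1C counts were 138, 116 and 119 untreated and 209.7, 214 and 183 with dox in Pa-Tu-8902, with 13492, 19463 and 13758 untreated and 5269, 4868 and 4892 with dox in MIA PaCa-2, where the high untreated value came from replicate 2. HIST1H1C was still called in opposite directions without that library, and lost the opposite call without untreated replicate 2 of Pa-Tu-8902.

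Replication-dependent histone messages end in a stem loop and mostly lack a poly(A) tail, so a library made from polyadenylated RNA holds mainly their polyadenylated forms. A look at the histone genes with a cluster symbol (HIST1 to HIST4) was added after these values were seen. Histone genes with other symbols were not covered. Of 52 such cluster genes tested, 17 were called in the difference, all with Pa-Tu-8902 above MIA PaCa-2, and 35 were not called. Of the 17, 9 moved in opposite directions, among them the 3 that prompted the look. Over all genes tested 10.4% were called, 6.55% with Pa-Tu-8902 above, and 0.714% were opposite. None of the 52 histone genes was called below by edgeR, where 3 had an unadjusted p under 0.05, and DESeq2 called 2 below. Dox raised 11 of the 52 and lowered 0 in Pa-Tu-8902 (edgeR, with 2 lower at an unadjusted p under 0.05 and 0 by DESeq2), and it raised 2 and lowered 19 in MIA PaCa-2. Over all genes tested, dox raised 8.44% and lowered 6.57% in Pa-Tu-8902, and raised 3.98% and lowered 7.04% in MIA PaCa-2. These shares also stand beside the single-line counts of the lists below. The median difference over the 52 was 0.30, and that over all genes tested was near 0. The 6 others that moved in opposite directions, HIST1H2BC, HIST1H2BD, HIST1H2BJ, HIST1H2AG, HIST1H2BN and HIST2H2BE, lay below the expression limit in Pa-Tu-8902. Their changes ran alongside: HIST1H2BD went by 1.24 in Pa-Tu-8902 against -1.27 in MIA PaCa-2, and HIST2H2BE by 1.17 in Pa-Tu-8902 against -1.72 in MIA PaCa-2. Histone genes are near-identical copies, so the share of reads given to each by the counting is uncertain. None of the 45 S-phase genes listed was called in the difference by edgeR or DESeq2, and 23 had an unadjusted p under 0.05.

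Promoter stretches are shown for the 3 histone genes among the 51. Each is RefSeq sequence of GRCh38.p14 before the RefSeq start, on the strand of the gene, with the CCAAT box (CCAAT, searched on both strands in 250 bases before and 50 after the start) in capitals.
HIST1H2AC: atttgctaccgaCCAATcaaaaagtcgga
HIST1H2BK: ccctaataaccaCCAATcagatacaggac
HIST1H1C: gcgaccagagcaCCAATcagagcgcgcct
They lie at chr6:26124092-26124120, plus strand, chr6:27146921-27146949, minus strand and chr6:26056511-26056539, minus strand. For each gene the box nearest the start is shown, of 3 found for HIST1H2AC, 6 for HIST1H2BK and 1 for HIST1H1C. It ended 63, 74 and 52 bases before the start. These 5 letters are common: 42.6% of the promoters of tested genes held them at least once. The number of boxes and their distance to the start were not compared with those of other genes.

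Genes known from the interferon response were also present. UBE2L6, the conjugating enzyme for the ubiquitin-like protein ISG15 (chr11:57551656-57568284, minus strand), had counts of 120, 99.9 and 138 untreated and 467, 472 and 429 with dox in Pa-Tu-8902, and 128, 137 and 159.6 untreated and 98.8, 80.0 and 94.0 with dox in MIA PaCa-2. The untreated libraries of the 2 lines overlapped for UBE2L6 and the dox-treated ones did not. Its change in MIA PaCa-2 was the smaller, -0.63 ± 0.14 against 1.94 ± 0.13, and the opposite call was lost without untreated replicate 3 or dox-treated replicate 2 of MIA PaCa-2. IFITM1, which restricts virus entry, had 785, 774 and 854 untreated and 1249, 1409.6 and 1357 with dox in Pa-Tu-8902, and 1559, 1530.5 and 1724 untreated and 1123, 1000.5 and 1074 with dox in MIA PaCa-2. IFITM1 lay just inside the fold limit and lost its opposite call in 4 of the 12 fits that left out 1 library. It also has close copies (IFITM2 and IFITM3), with which reads may be shared. SLFN5, a Schlafen family gene induced by interferon, went from 946 ± 44.1 to 2019.9 ± 151 in Pa-Tu-8902 and from 306 ± 41.4 to 189 ± 5.92 in MIA PaCa-2.

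The gene lists here and below were written with earlier results of these data known, so their shares are a description and no test. Of the 40 interferon response genes tested, 16 were called in the difference, all with Pa-Tu-8902 above MIA PaCa-2 (10.4% of all genes tested were called). The median difference of the list was 0.81. In Pa-Tu-8902 alone, dox raised 21 of the 40 and lowered 1, and in MIA PaCa-2 it raised 0 (edgeR, with 5 higher at an unadjusted p under 0.05 and 0 by DESeq2) and lowered 6. Of the 16, 10 were called in Pa-Tu-8902 only, 4 in MIA PaCa-2 only, 1 in both lines with opposite signs and 1 in neither. The opposite gene was BST2, the gene of tetherin, with counts of 90.9, 86.2 and 100.1 untreated and 235, 271 and 226 with dox in Pa-Tu-8902 and 111, 146 and 103 untreated and 39.1, 33.4 and 30.7 with dox in MIA PaCa-2. Its mean in MIA PaCa-2 lay below the limit of 100, which kept it out of the 51. MX1, a dynamin-like GTPase that blocks viruses, had 628, 586 and 642 untreated and 1570.2, 1802 and 1726 with dox in Pa-Tu-8902 and 43.6, 40.8 and 41.2 untreated and 29.9, 38.2 and 28.9 with dox in MIA PaCa-2. Its change of -0.39 ± 0.17 in MIA PaCa-2 was not called. IFIT2, which binds viral RNA, showed the other pattern: 2980.4, 2881 and 2971 untreated and 3166, 2872 and 3022 with dox in Pa-Tu-8902, with no change called, and 637, 579 and 549 untreated and 328, 344 and 300.2 with dox in MIA PaCa-2, where it fell. IRF9, a transcription factor of the pathway, changed by 1.93 in Pa-Tu-8902 against 0.18 in MIA PaCa-2 and was called in Pa-Tu-8902 only.

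The interferon-stimulated response element has a core of GAAA, any 2 bases, and GAAA again. It is shown in capitals for 3 opposite members that hold it, IFITM1, TRIM2 and AXL, and for BST2 and IFI27 of the interferon list. All stretches are RefSeq sequence of GRCh38.p14 before the start that RefSeq gives for the gene, and for BST2 and IFI27 1 of 2 sites is shown. The stretches of IFITM1, AXL and IFI27 lie inside the span of the gene in GENCODE, so that start is an internal one there.
IFITM1: caaacagcagGAAATAGAAActtaagagaa
TRIM2: aataaatagaGAAAAGGAAAtaagccgaag
AXL: cgctgacggaGAAAAGGAAActttgtgtct
BST2: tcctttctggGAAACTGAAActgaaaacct
IFI27: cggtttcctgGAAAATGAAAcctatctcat
They lie at chr11:313990-314019, plus strand, chr4:153151936-153151965, plus strand, chr19:41226557-41226586, plus strand, chr19:17405741-17405770, minus strand and chr14:94110631-94110660, plus strand. Promoters were found for 11566 of the 16529 tested genes and for 36 of the 51. The letters, on either strand, were in 3.94% of all promoters matched, in 7.06% of 836 called genes with Pa-Tu-8902 above, and in 3.79% of 475 with it below. Among the opposite genes with a promoter, 2 of 26 that rose in Pa-Tu-8902 and 1 of 10 that fell there held them. UBE2L6 and SLFN5 were not among these, either without a match or without a promoter found. In the interferon list 20 of 30 matched promoters held the letters, and among the called members of that list 8 of 12. AXL moved the other way from IFITM1 and TRIM2, so a match went with both directions.

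Of the MHC class I genes, 7 of 20 were called (35%, against 10.4% of all genes tested), all with Pa-Tu-8902 above. The median difference of the list was 0.39. TAPBPL, a peptide editor of MHC class I, had 548, 517 and 550.5 untreated and 1424, 1379 and 1404 with dox in Pa-Tu-8902 and 283, 275 and 289 untreated and 279, 272 and 277 with dox in MIA PaCa-2. It rose in the first line, and its 3 treated and 3 untreated libraries overlapped in the second. PSMB9, an immunoproteasome subunit, changed by 1.09 in Pa-Tu-8902 against -0.21 in MIA PaCa-2, and TAPBP, the gene of tapasin, by 0.89 in Pa-Tu-8902 against 0.06 in MIA PaCa-2. Both were called in Pa-Tu-8902 only.

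Lysosomal genes also differed. LIPA, the lysosomal acid lipase that frees cholesterol and fatty acids from lipoprotein lipids, was one of the 51, with counts of 2864, 2869.8 and 3175 untreated and 5384, 5165 and 5485 with dox in Pa-Tu-8902. Across MIA PaCa-2 libraries LIPA had 8687, 7504 and 8089.9 untreated and 3848, 3477 and 3846 with dox, so the 2 lines exchanged their order with dox. The antisense-type gene AL353751.1 lies across LIPA, with 135 exon bases on the opposite strand, and shares 524 exon bases with IFIT2 on its own strand. Its counts were 41.9, 30.3 and 40.3 untreated and 190.3, 215 and 156 with dox in Pa-Tu-8902, and 1418, 2109 and 1379 untreated and 726, 675 and 709 with dox in MIA PaCa-2. It had the second largest positive difference of the 51, 3.56 ± 0.26. The kit kept strand and RSEM was run with its defaults, with no strand setting named, so reads of LIPA as well as of IFIT2 could enter its counts. Its highest value came from untreated replicate 2 of MIA PaCa-2, without which it was still called in opposite directions. Of 57 lysosomal genes tested, 19 were called with Pa-Tu-8902 above and 1 below (6.55% and 3.88% over all genes tested). Their median difference was 0.43. Dox raised 21 and lowered 3 of them in Pa-Tu-8902, and raised 0 (17 at an unadjusted p under 0.05, 0 by DESeq2) and lowered 6 in MIA PaCa-2 with edgeR. CTSV, the gene of the protease cathepsin V, had 758, 769 and 838 untreated and 1427, 1385 and 1316 with dox in Pa-Tu-8902 and 1203, 1304 and 1166 untreated and 796, 839 and 877 with dox in MIA PaCa-2. Its change of -0.55 ± 0.07 in MIA PaCa-2 was under the fold limit. FUCA1, a fucosidase, was called in MIA PaCa-2 only, where it fell from 219 ± 10.6 to 38.3 ± 1.40 (mean ± SD, n = 3). Its change of -0.57 ± 0.07 in Pa-Tu-8902 was under the fold limit. The 1 gene called below was CTSC, the gene of cathepsin C, with -0.88 in Pa-Tu-8902 against -0.26 in MIA PaCa-2. TFEB, a master regulator of lysosomal genes, changed by 1.61 in Pa-Tu-8902 against -0.54 in MIA PaCa-2 and was called in Pa-Tu-8902 only. It stood in the autophagy list, where 6 of 48 genes were called, all with Pa-Tu-8902 above, a share of 12.5% against 10.4% of all genes tested. The others with the smallest p there were TP53INP1, with 2.97 in Pa-Tu-8902 against -0.62 in MIA PaCa-2, and WIPI1, with 1.57 in Pa-Tu-8902 against -0.39 in MIA PaCa-2; both are autophagy proteins.

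**Figure D3:**
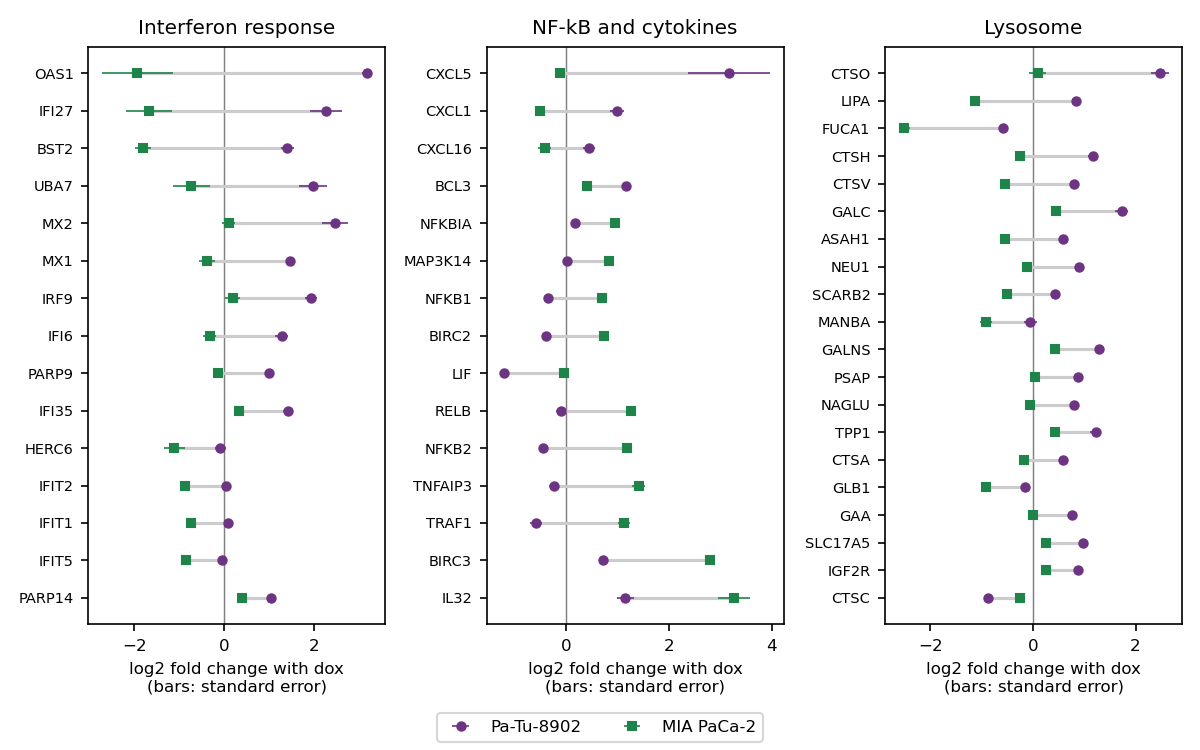
Log2 fold changes with dox (horizontal axes, bars are standard errors) in Pa-Tu-8902 (circles) and MIA PaCa-2 (squares) of the genes called in the difference from the interferon response (15 of 16), NF-kB and cytokine (15) and lysosome (20) lists. The circles lie to the right of the squares for all interferon genes drawn and for all lysosomal genes but CTSC, and to the left for 11 of the 15 NF-kB genes.

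Lipid and epoxide enzymes were further members. PLA2G16, a phospholipase, had log2 fold changes of 1.04 ± 0.11 in Pa-Tu-8902 versus -0.70 ± 0.14 in MIA PaCa-2, and EPHX2, the soluble epoxide hydrolase, of 0.63 ± 0.13 and -1.09 ± 0.13. PIK3C2B, a class II phosphoinositide kinase, went from 292 ± 31.7 to 591 ± 15.4 in Pa-Tu-8902 and from 269.9 ± 40.7 to 163 ± 31.2 in MIA PaCa-2.

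Transcriptional regulators were also among the 38. EHF, an ETS factor of epithelial cells (chr11:34621093-34663288, plus strand), had counts of 3028, 2845 and 2745 untreated and 6332, 5790.2 and 5976 with dox in Pa-Tu-8902, and 2616, 2081 and 2325 untreated and 1359.9, 1409 and 1332 with dox in MIA PaCa-2. The lines were near each other before dox and more than 4 times apart after it, with a ratio of 4.41. BHLHE41, a repressor that acts in the circadian clock, had 161, 173 and 181 untreated and 389, 374 and 391 with dox in Pa-Tu-8902. Its MIA PaCa-2 counts were 414, 299 and 288 untreated and 158, 153 and 147 with dox. Its difference was 2.29 ± 0.18. With the effective transcript lengths of each library as offsets the difference was 1.77 and was not called. IRF2BPL, a nuclear protein related to the partner of interferon regulatory factor 2, had 1093, 1039.7 and 1182 untreated and 1836, 2062 and 2119 with dox in Pa-Tu-8902 and 2610, 2586 and 2675 untreated and 1049.8, 1147 and 1082 with dox in MIA PaCa-2. The untreated libraries of each line lay apart and dox reversed their order. ZNF488, a zinc finger repressor, changed by 0.73 ± 0.11 and -0.60 ± 0.11, and RBM43, an RNA-binding protein, by 0.83 ± 0.14 and -0.76 ± 0.15.

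PPFIBP2, the gene of the scaffold liprin-beta 2, had 45.4, 52.3 and 67.5 untreated and 204, 219 and 209 with dox in Pa-Tu-8902 and 158, 184 and 181 untreated and 80.4, 91.9 and 81.4 with dox in MIA PaCa-2. SCNN1A, the alpha subunit of the epithelial sodium channel, had 8567, 8673 and 8995 untreated and 14252, 15369 and 15090 with dox in Pa-Tu-8902. The counts in MIA PaCa-2 were 1431, 1246 and 1591 untreated and 747, 739 and 618 with dox. PPFIBP2 changed its order between the lines, whereas SCNN1A was higher in Pa-Tu-8902 throughout and the gap widened. TLN2 (talin 2, which links integrins to actin) changed by 1.17 ± 0.11 and -0.73 ± 0.13, and with effective lengths as offsets its change in MIA PaCa-2 was -0.44, under the fold limit. KRT80, an epithelial keratin, changed by 0.62 ± 0.08 and -0.74 ± 0.08. RAB11FIP4, an effector of the recycling GTPase RAB11, changed by 0.60 ± 0.08 and -0.61 ± 0.11, just past the fold limit in both lines, and lost its opposite call in 4 of the 12 fits that left out 1 library.

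SYT7, a synaptotagmin that senses calcium at exocytosis and at lysosomes, had 464, 437 and 423 untreated and 1128, 1167 and 1190.1 with dox in Pa-Tu-8902 and 219.8, 142 and 201 untreated and 111, 113 and 94.9 with dox in MIA PaCa-2. NRGN, the gene of the calmodulin-binding protein neurogranin, went from 88.4 ± 9.23 to 156 ± 18.4 in Pa-Tu-8902 and from 331 ± 37.4 to 134 ± 13.3 in MIA PaCa-2. The calmodulin-dependent kinase gene CAMK1D changed by 0.63 ± 0.09 and -1.17 ± 0.09, and with effective lengths as offsets its change in Pa-Tu-8902 was 0.36, under the fold limit. DGCR6, a gene of the DiGeorge region with a close copy (DGCR6L), had 159.6, 137 and 181 untreated and 435, 494 and 451 with dox in Pa-Tu-8902 and 218, 248 and 246 untreated and 152, 152 and 160 with dox in MIA PaCa-2, and its reads may be shared with the copy. With effective lengths as offsets its log2 change in MIA PaCa-2 was -0.55, under the fold limit. The phosphatase gene PPM1H changed by 0.61 ± 0.10 and -0.93 ± 0.12, the Wnt signalling gene DIXDC1 by 0.60 ± 0.14 and -0.996 ± 0.134, and the ubiquitin ligase gene TRIM2 by 0.77 ± 0.13 and -0.85 ± 0.10. The last 2 members were CTXN1, the gene of the membrane protein cortexin 1, with 0.61 ± 0.08 and -0.65 ± 0.07, and AL365205.1, with 0.70 ± 0.15 and -0.89 ± 0.14. AL365205.1 shares 56.4% of its exon bases with PRICKLE4 on the same strand.

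**Figure D4:**
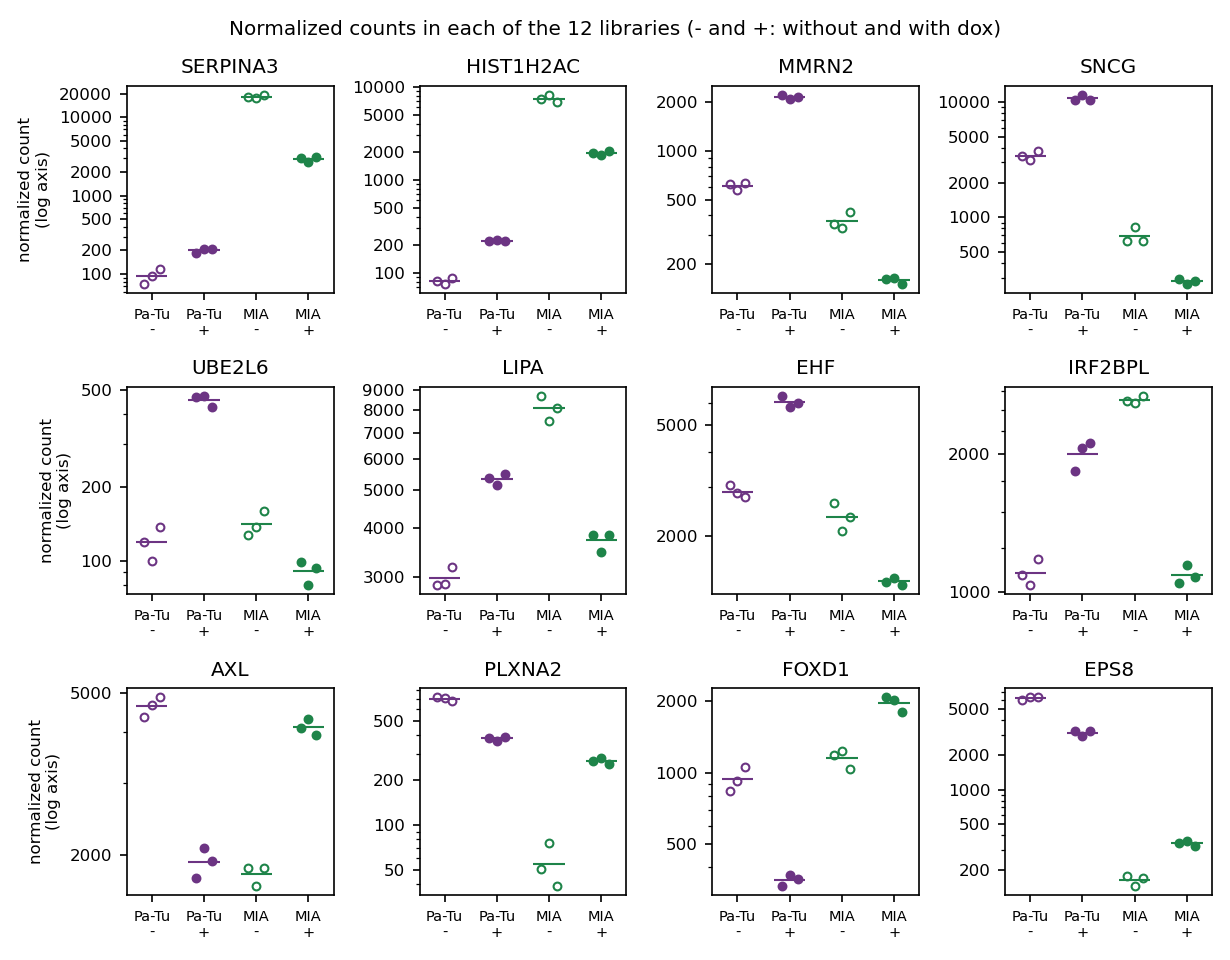
Normalized counts (log axes) in each library of 12 genes that moved in opposite directions, with open points for untreated and filled points for dox-treated libraries and a line at each mean. Treated and untreated libraries are apart in both lines for every gene, and for AXL the 2 lines exchange their order, from 4353 to 4874 against 1682 to 1861 without dox to 1759.5 to 2079 against 3947 to 4308 with it.

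The 13 genes lower in Pa-Tu-8902 and higher in MIA PaCa-2 included cell surface receptors. AXL, the receptor tyrosine kinase for GAS6 (chr19:41219223-41261766, plus strand), had counts of 4353, 4669.6 and 4874 untreated and 1759.5, 2079 and 1934 with dox in Pa-Tu-8902. Across MIA PaCa-2 libraries AXL had 1858, 1682 and 1861 untreated and 4094, 4308 and 3947 with dox. The log2 fold changes were -1.27 ± 0.07 and 1.19 ± 0.07, nearly equal in size, and the difference was -2.46 ± 0.10 (adjusted p = 4.6e-11, edgeR quasi-likelihood test). The lines exchanged levels: the dox-treated libraries of MIA PaCa-2 were close to the untreated ones of Pa-Tu-8902, without overlap. PLXNA2, a plexin that serves as a semaphorin receptor (chr1:208022242-208244384, minus strand), had 715, 707 and 672 untreated and 383, 367 and 389.9 with dox in Pa-Tu-8902, and 50.4, 75.1 and 39.1 untreated and 268, 279 and 256 with dox in MIA PaCa-2. Its change in MIA PaCa-2, 2.29 ± 0.15, was the largest of the 13, from the lowest level of the 4 groups. Its mean effective length in MIA PaCa-2 was 5223 bases untreated and 8629 with dox, and with these lengths as offsets the log2 change was 1.49 and the opposite call was kept. PEAR1, a receptor known from platelets and endothelium, had 3210, 3346 and 2727 untreated and 1804, 1536 and 1784 with dox in Pa-Tu-8902. Its MIA PaCa-2 counts were 208, 217 and 246 untreated and 534, 559.9 and 534 with dox. PLXNA2 and PEAR1 stayed higher in Pa-Tu-8902 with dox, but the gap closed from a ratio of 12.7 to 1.42 and from 13.8 to 3.15.

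EPS8, an EGFR substrate that regulates actin, had 6005, 6333 and 6332 untreated and 3204, 2896 and 3229 with dox in Pa-Tu-8902 and 176, 146 and 169 untreated and 340, 359 and 320 with dox in MIA PaCa-2. It went down about as much on the log2 scale, -1.002 ± 0.063, as it went up, 1.05 ± 0.09. PDE4A, a cyclic AMP phosphodiesterase, had 789, 739.9 and 802 untreated and 485, 474 and 479.7 with dox in Pa-Tu-8902 and 193, 152 and 186 untreated and 288, 295 and 269 with dox in MIA PaCa-2, and its opposite call was lost without untreated replicate 2 of MIA PaCa-2. RPS6KL1, a kinase-like relative of the S6 kinases, had 209, 217 and 222 untreated and 140.4, 126 and 97.0 with dox in Pa-Tu-8902 and 93.0, 95.5 and 106 untreated and 175, 149 and 174 with dox in MIA PaCa-2. With effective lengths as offsets its change in MIA PaCa-2 was 0.48, under the fold limit.

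Regulators of transcription and RNA completed the set with ubiquitin ligase genes. FOXD1, a forkhead transcription factor, had 835, 920.5 and 1056 untreated and 335, 373 and 356 with dox in Pa-Tu-8902 and 1184, 1233 and 1042 untreated and 2074, 2025 and 1798 with dox in MIA PaCa-2. The untreated libraries of the lines lay near each other, and dox drew the lines apart. ARID3B, a DNA-binding protein, had 903, 925 and 925 untreated and 464, 388 and 433 with dox in Pa-Tu-8902. Its MIA PaCa-2 counts were 399, 362 and 446 untreated and 784, 727 and 713 with dox, which turned the order of the lines over. HDAC9, a class IIa histone deacetylase, had 861, 1036 and 938 untreated and 616, 559.6 and 589.9 with dox in Pa-Tu-8902 and 1000.4, 920.2 and 951 untreated and 1545, 1473 and 1588 with dox in MIA PaCa-2. The untreated libraries of the 2 lines overlapped, and the treated ones differed by a ratio of 2.61. RBMS2, an RNA-binding protein, had 3918, 4054 and 3804 untreated and 2260.1, 2301 and 2275 with dox in Pa-Tu-8902 and 863, 775 and 943 untreated and 1499, 1483 and 1399.5 with dox in MIA PaCa-2. Its mean effective length in MIA PaCa-2 was 5222 bases untreated and 6776 with dox, and with these lengths as offsets its log2 change of 0.30 was not called. TRIM47, a ubiquitin ligase, had 1239.7, 1296 and 1390.5 untreated and 578, 628 and 588 with dox in Pa-Tu-8902. The counts in MIA PaCa-2 were 128, 159 and 131 untreated and 263, 248 and 214 with dox. KLHL21, an adaptor of the CUL3 ubiquitin ligase, had 1571, 1517 and 1731 untreated and 909, 907 and 971 with dox in Pa-Tu-8902 and 1884, 1872 and 1922 untreated and 3193, 3282 and 3080.2 with dox in MIA PaCa-2, without overlap in either line.

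All 51 genes kept the sign of their change in each line in all 18 alternative fits, but 23 lost the opposite call in at least 1. Their groups did not overlap in either line, so leaving out 1 library could hardly reverse a sign. The kept signs therefore follow largely from how the 51 were chosen. With effective lengths as offsets it was lost for 13: BHLHE41, CAMK1D, DGCR6, DIXDC1, EPHX2, IFITM1, RAB11FIP4, RBM43, RBMS2, RPS6KL1, SLFN5, TLN2 and TRIM2. Among fits that left out 1 library, CTXN1 lost it without untreated replicate 1 or 2 or dox-treated replicate 2 of Pa-Tu-8902, and PPM1H without untreated or dox-treated replicate 2 of that line. DIXDC1 and EPHX2 lost it without untreated replicate 1 of Pa-Tu-8902, and AL365205.1 and KRT80 without untreated replicate 2. CRISPLD2 and ZNF488 lost it without untreated replicate 1 or 3 or dox-treated replicate 3 of MIA PaCa-2, DGCR6 without untreated replicate 3 and PLA2G16 without dox-treated replicate 2.

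The AP-1 site, TGANTCA on either strand, was in the promoters of KLHL21 and HDAC9 of the 13 and of PPFIBP2 and TRIM2 of the 38. The sites of KLHL21, HDAC9 and PPFIBP2 are shown in capitals within RefSeq sequence of GRCh38.p14 before the RefSeq start. All 3 lie inside the GENCODE span of their gene, before an internal start.
KLHL21: gcggacagcggTGACTCAgcctgcggagc
HDAC9: catgctgttgtTGATTCAtatgcaaatgg
PPFIBP2: tacaattggaaTGACTCAcctcaaggtac
They lie at chr1:6603036-6603064, minus strand, chr7:18495671-18495699, plus strand and chr11:7605627-7605655, plus strand. The letters were in 7.00% of all promoters matched, in 8.25% of called genes with Pa-Tu-8902 above and in 12.2% of those with it below. Among the opposite genes with a promoter, 2 of 26 that rose in Pa-Tu-8902 and 2 of 10 that fell there held them. The AP-1 subunit FOSL1 itself had 18042, 18787 and 19464 untreated and 7467, 8556 and 8684 with dox in Pa-Tu-8902 and 2466, 2244 and 2509.6 untreated and 3075, 3108 and 2836 with dox in MIA PaCa-2, and JUN had 1218, 1288 and 1343 untreated and 720.4, 714 and 808 with dox and 3099, 2785 and 3039 untreated and 3078, 2920.3 and 2991 with dox. Both fell in Pa-Tu-8902 and were not called in MIA PaCa-2. A match of letters describes the window and shows neither binding nor its absence.

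For this list and those that follow, the shares over all genes tested were 6.55% called above and 3.88% called below. The list of ERK feedback and AP-1 genes had 2 of 29 called with Pa-Tu-8902 above and 6 below, with a median difference of -0.26. SPRY1, a feedback inhibitor of ERK signalling, was called at 0.87 ± 0.09 with 0.53 in Pa-Tu-8902 against -0.34 in MIA PaCa-2. Of 13 ERBB receptors and ligands, 4 were called above and 2 below. ERBB3 was called in MIA PaCa-2 only, with 0.28 in Pa-Tu-8902 against -0.88 in MIA PaCa-2. AREG, the gene of amphiregulin, fell in both lines, with -0.71 in Pa-Tu-8902 against -2.03 in MIA PaCa-2, and HBEGF, another EGFR ligand, was called in Pa-Tu-8902 only, with -0.88 in Pa-Tu-8902 against 0.45 in MIA PaCa-2. Among 22 YAP-TEAD targets 1 was called above and 3 below, the 3 being AXL, CYR61 and NUAK2. CYR61, a matricellular protein, had 859, 974 and 1011 untreated and 983, 1105 and 1077 with dox in Pa-Tu-8902 and 2906, 2967 and 2767 untreated and 11378, 10808 and 10571 with dox in MIA PaCa-2, and NUAK2, a kinase, rose in both lines, by 1.40 in Pa-Tu-8902 against 3.13 in MIA PaCa-2.

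Of 34 NF-kB and cytokine genes tested, 11 were called with Pa-Tu-8902 below MIA PaCa-2 and 4 above (3.88% and 6.55% over all genes tested). Their median difference was -0.44. Dox raised 12 and lowered 0 in MIA PaCa-2 (edgeR, with 3 lower at an unadjusted p under 0.05 and 0 by DESeq2), and raised 8 and lowered 1 in Pa-Tu-8902. BIRC3, an inhibitor of apoptosis and a target of NF-kB, rose in both lines, from 7023 ± 195 to 11595 ± 761 in Pa-Tu-8902 and from 281 ± 2.74 to 1958 ± 50.5 in MIA PaCa-2. NFKB2, the p100 precursor, had 2137, 2152 and 2217 untreated and 1585, 1588 and 1640.2 with dox in Pa-Tu-8902 and 1340.3, 1461 and 1459 untreated and 3375, 3110.1 and 3220.3 with dox in MIA PaCa-2. The libraries did not overlap in either line and lay in opposite directions, but the change of -0.44 ± 0.06 in Pa-Tu-8902 was under the fold limit. BIRC2, the relative of BIRC3, had the same pattern, with -0.38 in Pa-Tu-8902 against 0.74 in MIA PaCa-2. RELB, the partner of NFKB2, changed by -0.10 in Pa-Tu-8902 against 1.27 in MIA PaCa-2, and TNFAIP3, an inhibitor of NF-kB, by -0.23 in Pa-Tu-8902 against 1.42 in MIA PaCa-2. The 4 called above were BCL3, CXCL1, CXCL5 and CXCL16. CXCL5, a chemokine, changed by 3.17 in Pa-Tu-8902 against -0.11 in MIA PaCa-2.

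**Figure D5:**
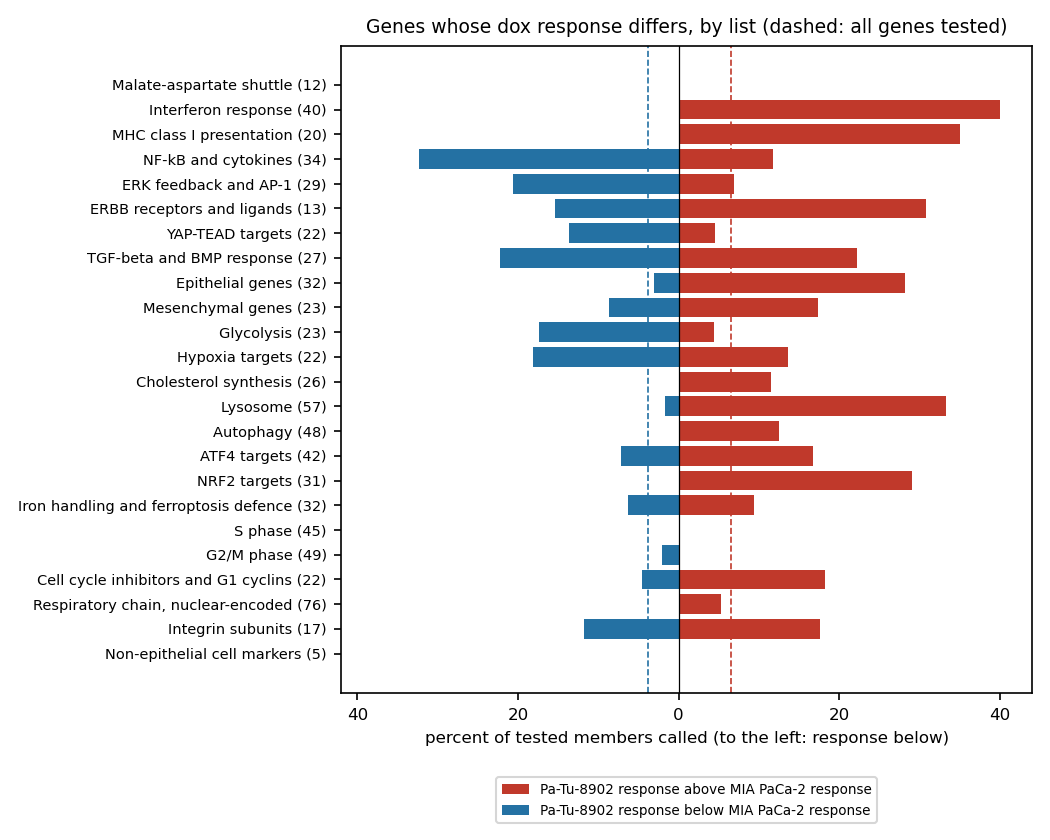
Percent of the tested members of each list (number tested in brackets) called in the difference, to the right for Pa-Tu-8902 above MIA PaCa-2 and to the left for below. Dashed lines give the same over all genes tested, 6.55% and 3.88%, and the longest bars are the interferon list on the right and the NF-kB list on the left. The lists were written with earlier results of these data known.

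In the TGF-beta and BMP list 6 of 27 were called above and 6 below. SMAD6, an inhibitor of BMP signalling, had 130.5, 153 and 122 untreated and 1069.6, 1052 and 1045 with dox in Pa-Tu-8902 and 149, 163 and 122 untreated and 185, 184 and 191 with dox in MIA PaCa-2. ID2, a BMP target, changed by 1.34 in Pa-Tu-8902 against -0.48 in MIA PaCa-2. LTBP1, which binds latent TGF-beta, moved in opposite directions below the expression limit, with 0.84 in Pa-Tu-8902 against -1.45 in MIA PaCa-2. Of 32 epithelial genes, 9 were called above and 1 below, while the median difference of the list was -0.29, of the other sign. KRT15, a basal keratin, had 329, 378 and 295 untreated and 379.6, 329.9 and 320.5 with dox in Pa-Tu-8902 and 1132, 1085 and 1196 untreated and 110.3, 93.1 and 124 with dox in MIA PaCa-2. MUC1, a mucin, changed by 0.80 in Pa-Tu-8902 against -0.58 in MIA PaCa-2 and missed the fold limit in MIA PaCa-2. Of 23 mesenchymal genes 4 were called above and 2 below. CALD1, the gene of the actin-binding protein caldesmon, was called in MIA PaCa-2 only, with 0.19 in Pa-Tu-8902 against -0.74 in MIA PaCa-2. COL6A1, a collagen gene, and PDGFC, a growth factor gene, were called in Pa-Tu-8902 only, with 1.27 in Pa-Tu-8902 against 0.20 in MIA PaCa-2 and with 0.64 in Pa-Tu-8902 against -0.28 in MIA PaCa-2. SNAI2, the gene of the repressor Slug, moved in opposite directions below the expression limit, with counts of 179, 159.5 and 199 untreated and 112, 107 and 90.8 with dox in Pa-Tu-8902 and 31.0, 38.6 and 42.2 untreated and 68.9, 69.2 and 87.7 with dox in MIA PaCa-2. Of 17 integrin subunits 3 were called above and 2 below, with a median difference of 0.37. ITGB8 changed by 0.37 in Pa-Tu-8902 against -2.47 in MIA PaCa-2, ITGA3 by -0.90 in Pa-Tu-8902 against -1.69 in MIA PaCa-2 and ITGA5 by 0.28 in Pa-Tu-8902 against 1.00 in MIA PaCa-2.

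In the glycolysis list 1 of 23 was called above and 4 below. ENO2, an enolase, had 800.5, 870.1 and 757 untreated and 240.1, 218 and 211 with dox in Pa-Tu-8902 and 1295, 1183 and 1332 untreated and 994, 997 and 974 with dox in MIA PaCa-2, HK2, a hexokinase, changed by -0.79 in Pa-Tu-8902 against 0.10 in MIA PaCa-2, and the lactate transporter gene SLC16A1 by -0.01 in Pa-Tu-8902 against 0.59 in MIA PaCa-2. Of 22 hypoxia targets 3 were called above and 4 below, with ARRDC3, an arrestin family gene, at 0.80 in Pa-Tu-8902 against -0.26 in MIA PaCa-2 and DDIT4, an inhibitor of mTORC1, at 0.27 in Pa-Tu-8902 against -0.56 in MIA PaCa-2. Of 26 genes of cholesterol synthesis 3 were called (11.5%, against 10.4% of all genes tested), all above: MSMO1, TM7SF2 and SC5D, enzymes of the pathway, with differences of 0.84, 1.09 and 0.76. Of 42 ATF4 targets 7 were called above and 3 below. GDF15, a stress cytokine, fell in MIA PaCa-2 from 70.6 ± 2.60 to 11.8 ± 3.13 and moved by 0.13 ± 0.09 in Pa-Tu-8902, and SHMT2, a mitochondrial serine enzyme, changed by -0.70 in Pa-Tu-8902 against 0.18 in MIA PaCa-2. Of 31 NRF2 targets 9 were called, all above, with a median difference of 0.44. AKR1C3, an aldo-keto reductase, had 50.1, 45.8 and 47.9 untreated and 208, 234 and 222 with dox in Pa-Tu-8902 and 29.1, 38.6 and 32.9 untreated and 16.1, 10.7 and 20.8 with dox in MIA PaCa-2, opposite below the expression limit. ALDH3A1, an aldehyde dehydrogenase, did the same with 1.39 in Pa-Tu-8902 against -2.25 in MIA PaCa-2, and NQO1, a quinone reductase, was called at 0.80 and in neither line alone. Of 32 genes of iron handling and ferroptosis defence 3 were called above and 2 below. SLC39A8, a metal importer, was called in MIA PaCa-2 only, with -0.22 in Pa-Tu-8902 against 1.72 in MIA PaCa-2, and HMOX1, heme oxygenase, rose in both lines, by 2.92 in Pa-Tu-8902 against 1.78 in MIA PaCa-2. ACSL4, which puts polyunsaturated fatty acids into lipids, was not called and had a difference of -0.58.

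The S-phase, G2/M and respiratory chain lists had a smaller share of calls than the 10.4% of all genes. In the S-phase list, where 0 of 45 were called as given above, the 3 smallest p belonged to GINS4, CDC6 and MCM2, replication genes with differences of 0.51, -0.44 and -0.52, past the adjusted p but under the fold limit. In the G2/M list 1 of 49 was called, UBE2C, a mitotic ubiquitin-conjugating enzyme, with -0.59. ECT2 and AURKB, which act in cytokinesis, had differences of -0.54 and -0.57 and were not called. Of 22 cell cycle inhibitors and G1 cyclins 4 were called above and 1 below. CCNG2, an atypical cyclin, changed by 1.17 in Pa-Tu-8902 against -0.50 in MIA PaCa-2, CCNG1 by -0.45 in Pa-Tu-8902 against -1.17 in MIA PaCa-2, and CDK6, a G1 kinase, by 0.43 in Pa-Tu-8902 against 1.40 in MIA PaCa-2. Of 76 nuclear-encoded respiratory chain genes 4 were called (5.26%), all above, among them ATP5MC2, ATP5MC1 and NDUFB5 with differences of 1.05, 0.73 and 0.64. In the malate-aspartate shuttle list 0 of 12 were called by edgeR or DESeq2 and 5 had an unadjusted p under 0.05. GLUD1, ME1 and MDH1, enzymes beside the shuttle or of it, had differences of -0.49, 0.44 and 0.33. Of the 16 non-epithelial cell markers 5 were tested and 0 called by edgeR or DESeq2 (2 with an unadjusted p under 0.05), with differences of 2.40 for VWF, 0.83 for CD14 and -0.98 for ITGAM at low counts. Only 3 of the 51 opposite genes, LIPA, EHF and AXL, belonged to any of the 24 lists.

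Some genes were called in 1 line only while being well expressed in both. In Pa-Tu-8902, C1S, a complement protease, rose from 48.3 ± 8.63 to 359 ± 53.2 (mean ± SD, n = 3), against 365 ± 15.3 and 329.6 ± 46.8 in MIA PaCa-2. ST3GAL5, the synthase of the ganglioside GM3, and ALDH1A1, a retinal dehydrogenase, rose there by 2.69 ± 0.14 and 3.06 ± 0.12. ALDH1A1 was already at 19726 ± 568 in untreated MIA PaCa-2. CAMK2N1, an inhibitor of CaMKII, fell from 2124 ± 125 to 226 ± 26.1 in Pa-Tu-8902 and changed by -0.05 ± 0.10 in MIA PaCa-2. COL27A1, a fibrillar collagen, and LAT, an adaptor known from T cells, fell there, with log2 fold changes of -1.75 ± 0.13 and -1.62 ± 0.14. KRT15, ITGB8 and HIST2H4A fell in MIA PaCa-2 and were not called in the other line. HIST2H4A, a histone H4 gene with an identical copy, went from 3412 ± 331 to 569.5 ± 43.4. SAMD4A, an RNA-binding repressor, and TGM2, transglutaminase 2, rose there by 2.59 ± 0.17 and 1.66 ± 0.08, beside SLC39A8. TGM2 remained far higher in Pa-Tu-8902, at 70136 ± 4454 with dox against 9107 ± 499.5.

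Other genes moved the same way in both lines by different amounts. UNC5B, a netrin receptor, rose by 2.95 in Pa-Tu-8902 against 0.64 in MIA PaCa-2 on the log2 scale, and TNFRSF1B, TNF receptor 2, by 2.90 in Pa-Tu-8902 against 0.88 in MIA PaCa-2. C12orf75 fell more in MIA PaCa-2, with -0.61 in Pa-Tu-8902 against -2.31 in MIA PaCa-2. KLK10, a kallikrein, and NTSR1, a neurotensin receptor, fell more in Pa-Tu-8902, with -3.08 in Pa-Tu-8902 against -0.92 in MIA PaCa-2 and with -3.80 in Pa-Tu-8902 against -1.64 in MIA PaCa-2. BIRC3 was the third gene of those with the most negative difference in this class.

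The remaining 67 opposite genes lay below the expression limit in at least 1 line, 52 higher in Pa-Tu-8902 and 15 lower. Their differences were larger, with medians of 2.61 and -2.08. The log2 fold change in Pa-Tu-8902 had a median of 1.22 in the 52 and -0.88 in the 15. A bulk library cannot tell fewer cells with a transcript from less transcript per cell, and this holds for every value above. The labels give 3 libraries per group without saying whether they came from separate cultures, so the spread between them may be technical.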

How the data were processed

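Polyadenylated RNA of 12 libraries was sequenced as paired reads. Per the labels and methods, the authors trimmed reads with Trimmomatic 0.39, aligned them with STAR 2.5.2a as called by RSEM 1.3.1 to GRCh38 with GENCODE v29, and deposited RSEM expected counts, TPM and effective lengths per gene for each library. The deposited expected counts are not normalized, and 5.30% of them were not whole, so they were rounded. The deposited TPM values were used for cell markers only, and the effective lengths (bases, per the file headers) as an alternative. Counts of 45 rows of genes repeated on chromosome Y were summed with their X copies. Genes that reached 10 counts in 3 or more libraries were tested with edgeR 4.0.16 (limma 3.58.1, R 4.3.3): TMM normalization, a quasi-likelihood fit with 4 groups over 12 libraries, and Benjamini-Hochberg adjustment over all genes tested. SE was taken as the absolute log2 change over the root of F. Calls needed an adjusted p below 0.01 and a fold of at least 1.5. Genes named were GOT1, the 12 opposite genes with the largest differences in each direction, the 3 with the smallest p in each of 24 lists, and the 3 with the largest difference in each class of response. A few genes that this rule names are not reported here. All other genes named were chosen after their values were seen. The members and lists were chosen with earlier results of these data known. Positions of genes came from GENCODE 44 and sequences from RefSeq, both on GRCh38. On simulated counts with known interactions over the 16529 genes, 24 of 50 genes with a 1.5-fold difference passed the adjusted p, 42 of 50 with a 2-fold and 50 of 50 with a 4-fold difference, and 3 of 16329 unchanged genes did. The changed genes were drawn from those with a simulated mean count of at least 50. Both lines had the same baseline level, and the fold limit was not applied. These rates are therefore not the sensitivity of the calls above. Alternatives were DESeq2 1.42.0, its size factors, other filters, the replicate block, effective lengths, other limits and leaving out each library.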

Additional observations from a re-analysis of the deposited data

Results flagged for a closer look

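Each value here is a difference between the lines (log2 fold change with dox in Pa-Tu-8902 minus that in MIA PaCa-2) that passed edgeR's interaction test over all genes, and it is given with no explanation. In all, 1724 genes passed. Among opposite genes the largest positive differences were SERPINA3 3.69, AL353751.1 3.56, HIST1H2AC 3.38, MMRN2 3.05, PPFIBP2 2.98, SNCG 2.95, HIST1H2BK 2.73, UBE2L6 2.57, HIST1H1C 2.35, BHLHE41 2.29, SYT7 2.22 and DGCR6 2.15. Large negative ones were PLXNA2 -3.17, AXL -2.46, FOXD1 -2.17, PEAR1 -2.14, EPS8 -2.05, ARID3B -1.98, TRIM47 -1.92, RPS6KL1 -1.59, RBMS2 -1.55, KLHL21 -1.54 and PDE4A -1.37. Differences in the Interferon response list were BST2 3.21, MX1 1.84 and IFIT2 0.90. For the MHC class I presentation list the differences were TAPBPL 1.41, PSMB9 1.301 and TAPBP 0.82. Within the NF-kB and cytokines list the differences were BIRC3 -2.08, NFKB2 -1.62 and BIRC2 -1.12. In the ERK feedback and AP-1 list the differences were FOSL1 -1.51, SPRY1 0.87 and JUN -0.79. Differences in the ERBB receptors and ligands list were ERBB3 1.16, AREG 1.32 and HBEGF -1.33. For the YAP-TEAD targets list the differences were CYR61 -1.77 and NUAK2 -1.73. Within the TGF-beta and BMP response list the differences were SMAD6 2.59 and ID2 1.82. In the Epithelial genes list the differences were KRT15 3.41, EHF 1.85 and MUC1 1.38. Differences in the Mesenchymal genes list were PDGFC 0.92, CALD1 0.92 and COL6A1 1.07. For the Glycolysis list the differences were ENO2 -1.50, HK2 -0.88 and SLC16A1 -0.61. Within the Hypoxia targets list the differences were ARRDC3 1.07 and DDIT4 0.82. In the Cholesterol synthesis list the differences were MSMO1 0.84, TM7SF2 1.09 and SC5D 0.76. Differences in the Lysosome list were LIPA 1.97, FUCA1 1.93 and CTSV 1.35. For the Autophagy list the differences were TFEB 2.15, TP53INP1 3.59 and WIPI1 1.97. Within the ATF4 targets list the differences were GDF15 2.66 and SHMT2 -0.88. In the NRF2 targets list the differences were AKR1C3 3.24, ALDH3A1 3.63 and NQO1 0.80. Differences in the Iron handling and ferroptosis defence list were SLC39A8 -1.93 and HMOX1 1.14. For the G2/M phase list the difference was UBE2C -0.59. Within the Cell cycle inhibitors and G1 cyclins list the differences were CCNG2 1.67, CDK6 -0.97 and CCNG1 0.72. In the Respiratory chain, nuclear-encoded list the differences were ATP5MC2 1.05, ATP5MC1 0.73 and NDUFB5 0.64. Differences in the Integrin subunits list were ITGB8 2.84, ITGA3 0.79 and ITGA5 -0.72. Among genes called in 1 line only, or in both the same way, they were C1S 3.04, ST3GAL5 2.84, ALDH1A1 2.79, CAMK2N1 -3.18, COL27A1 -2.33, LAT -2.16, HIST2H4A 3.04, SAMD4A -2.98, TGM2 -2.01, UNC5B 2.31, TNFRSF1B 2.02, C12orf75 1.70, KLK10 -2.16 and NTSR1 -2.16.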

How the results depend on the processing

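Limits on size and level moved the counts most. With no fold limit 2800 genes were called in the difference, 1310 of them with Pa-Tu-8902 below, and 330 well expressed genes were opposite (182 higher and 148 lower in Pa-Tu-8902). With a fold of at least 2 the counts were 838 (586 above and 252 below) and 10 opposite (7 and 3). Without an expression limit 118 were opposite (90 and 28), and with a mean of at least 500 they were 16 (10 and 6). With effective lengths as offsets 1327 genes were called, 48 were called in both lines the same way against 75, and 45 were opposite, of which 38 were among the 51. DESeq2 gave 1793 and 54 opposite, its size factors 1728 and 52, no filter 1961 and 57, and at least 10 counts in every library 1570 and 52. Leaving out 1 library gave 1536 to 1729 genes (961 to 1140 above, 566 to 633 below) and 48 to 57 opposite (34 to 43 and 13 to 18). The class counts were 633 to 723 for Pa-Tu-8902 only, 356 to 421 for MIA PaCa-2 only, 61 to 73 for both the same way and 362 to 403 for neither. List members called were 150 to 161 against 156, and the GOT1 difference was 0.03 to 0.29. Of the 51, 28 kept the opposite call in all 18 alternative fits and 36 in every fit without 1 library. All 51 kept their signs, which follows largely from how they were chosen. Same-numbered libraries did not deviate together (correlations of -0.03 to 0.07), so the numbers were not taken as pairs. The fit with the replicate block called 1611 genes and 51 opposite. Of 1921 values of 107 named genes under alternatives, 1891 were scored as the same. Of these values 0 reversed (edgeR and DESeq2 fits) and 19, in BHLHE41, SLC16A1, UBE2C and NDUFB5, were no longer called. The rest fell in none of these groups. Of 378 list medians under alternatives, 299 were scored as the same and 79 as moved. The class counts under other fits, and list counts under other filters and the block, were chosen after seeing the data. The cause of these shifts was not tested.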
